A study of Mus musculus with 2 samples.

Results

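The genes described here are the cornified envelope genes of the epidermal differentiation complex, 47 of the 31053 features in the deposited tables. They were chosen by symbol: every feature starting with Lce (late cornified envelope, 21 genes) or Sprr (small proline-rich, 15 genes), together with Lor, Ivl, Flg, Flg2, Hrnr, Rptn, Tchh, Tchhl1, Crct1, Crnn and Kprp. The S100 genes of the same complex were not included. Their UMIs (unique transcript molecules) were read in each keratinocyte layer of 2 single-cell libraries of whole back skin, 1 from a wild-type mouse (WT) and 1 from a mouse carrying the Card14 KI +/+ genotype (Card14KI). Both mice were C57BL/6 and 12 months old, and according to the series title the knock-in models pityriasis rubra pilaris, in which the skin reddens and scales. CARD14 is a scaffold protein of skin cells that activates NF-kB signalling.

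As keratinocytes move from the spinous into the granular layer and flatten into corneocytes, they lay down a cornified envelope under the plasma membrane, in which transglutaminases cross-link involucrin, loricrin, small proline-rich and late cornified envelope proteins. Filaggrin and its relatives, the fused S100 proteins, are stored in keratohyalin granules and bind keratin filaments, and filaggrin is later broken down into small molecules that hold water in the stratum corneum. Involucrin and the small proline-rich proteins are classed as early parts of the envelope, loricrin and the late cornified envelope proteins as later ones.

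The WT library gave 4161 cells and the Card14KI library 2835 after filtering, from 54816411 and 41460580 deposited UMIs. The median cell held 7344 and 6875 UMIs, and the libraries shared 2 barcodes. There was 1 library per genotype, so no difference has a test or a replicate check, library and genotype cannot be told apart, and every interval is a 95% interval for counting error only. Cells were clustered without the 47 genes, and clusters were named from other markers, so names can differ from the study's. Levels are given as CPM, UMIs per 1000000 UMIs of the cells in a cluster, and counts were taken at 3' ends, so a level is not divided by gene length. The clusters, with WT and Card14KI cells, were an unnamed one with both Krt5 and Krt1 (58 and 167 cells), lower spinous-like (83 and 120), upper spinous-like (73 and 165), early granular-like (45 and 64) and late granular-like (26 and 20). Early and late refer to the order of these granular clusters by their spinous marker sum, 94821 and 109951 CPM in the early and 33053 and 48252 CPM in the late cluster. Fibroblasts, which should lack these genes, gave the background of free RNA: the members summed to 217 CPM in WT and 132.3 CPM in Card14KI fibroblasts.

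All 47 genes lay in 1392 kb of chromosome 3, from 92080271 to 93471980 in GRCm38 with the GENCODE vM21 annotation, with Lor at the low end and Tchh and Tchhl1 at the high end. Of the 14 Lce1 genes, 13 lay side by side between 92646535 and 92851286. The exception was Lce1m, at 93017810 to 93019060 next to Crct1, beyond the Lce3 genes. The coding sequences of the other 13 Lce1 genes were 74.4 to 95.7% identical over 78 pairs (median 85.1%), while Lce1m was 54.0 to 61.9% identical to them (median 59.1%).

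The 300-base windows at the gene starts set Lce1m less apart, with 51.8 to 55.5% identity to the other Lce1 genes (median 54.2%). Those were 51.9 to 86.0% identical to each other (median 66.7%), and Lce1l of the block was as far from the rest, at 51.9 to 55.8%. The sequences before 4 gene starts are shown because these genes differ below in the clusters where they were high. Each is the 250 bases before the start, from RefSeq promoters on GRCm38.p6, written 5′ to 3′ on the gene's strand, with TATAAA and the AP-1 motif TGANTCA in capitals.
Lor, chr3:92083143-92083392, minus strand: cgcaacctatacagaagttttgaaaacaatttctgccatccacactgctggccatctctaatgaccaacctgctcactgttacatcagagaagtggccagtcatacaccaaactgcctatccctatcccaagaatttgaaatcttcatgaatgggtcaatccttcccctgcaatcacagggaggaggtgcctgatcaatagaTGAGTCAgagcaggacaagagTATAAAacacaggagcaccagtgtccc
Flg, chr3:93273296-93273545, plus strand: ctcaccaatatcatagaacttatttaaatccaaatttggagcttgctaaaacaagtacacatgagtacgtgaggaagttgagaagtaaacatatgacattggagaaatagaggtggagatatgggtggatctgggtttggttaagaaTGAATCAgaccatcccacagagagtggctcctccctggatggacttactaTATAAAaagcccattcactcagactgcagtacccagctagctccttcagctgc
Lce1m, chr3:93019062-93019311, minus strand: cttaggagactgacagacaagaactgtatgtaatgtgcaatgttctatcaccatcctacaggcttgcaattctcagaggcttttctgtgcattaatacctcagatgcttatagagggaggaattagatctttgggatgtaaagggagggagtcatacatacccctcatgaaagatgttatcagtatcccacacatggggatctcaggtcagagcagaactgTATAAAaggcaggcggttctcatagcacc
Lce1a1, chr3:92648308-92648557, minus strand: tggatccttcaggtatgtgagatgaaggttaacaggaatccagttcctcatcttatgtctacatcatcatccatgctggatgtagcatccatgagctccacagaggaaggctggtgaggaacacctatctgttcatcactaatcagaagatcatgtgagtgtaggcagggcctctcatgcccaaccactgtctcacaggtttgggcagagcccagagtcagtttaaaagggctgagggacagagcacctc
Lor and Flg carried both motifs, Lce1m carried TATAAA starting 29 bases before its start, and Lce1a1 carried neither. The search was for exact letters, and Lce1a1 holds the similar TTTAAA starting 29 bases before its own start. Windows of 300 bases (250 before and 50 after the start) were found for 43 of the 47 members and 32851 promoters in all, and were searched on both strands. TATAAA stood in 20 of the 43 (46.5%, against 13.6% of all promoters) and TGANTCA in 16 (37.2%, against 7.8%). These counts take related copies as separate members. Sprr2b, Sprr2d, Sprr2e, Sprr2f, Sprr2h, Sprr2i and Sprr2k all held TATAAA starting 29 bases before the start, and TGANTCA 193 to 198 bases before it. Of the 12 windows of Lce1 genes other than Lce1m, 1 held TATAAA (Lce1d) and 0 held TGANTCA. The other motifs were TGACNNNGC, the antioxidant response element, in 18.6% of members and 12.4% of all; CACCC, read by KLF factors, in 51.2% and 57.5%; TTGCNNAA, read by C/EBP factors, in 11.6% and 10.8%; and the NF-kB motif, in 0 of 43 members and 4.5% of all. Matches of different motifs can share bases, as in Sprr1a, where an AP-1 match lies inside an antioxidant response element match. A match describes letters in a window, not binding.

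From the spinous to the granular clusters the 47 genes went from a small part of the RNA to a large one. In WT they held 0.0613% of UMIs in the Krt5 and Krt1 cluster, 0.177% in the lower spinous, 1.57% in the upper spinous, 12.8% in the early granular and 47.3% in the late granular cluster. In Card14KI the same clusters held 0.0886%, 0.0884%, 1.36%, 10.3% and 41.8%. The late granular values rest on 26 and 20 cells, in which the share ran from 17.2 to 68.5% in WT and from 12.6 to 65.9% in Card14KI. From the lower spinous to the late granular cluster the share thus rose at each step in both libraries, while the Krt5 and Krt1 cluster lay below the lower spinous one in WT and level with it in Card14KI. With the inner root sheath left out, 31 of the 37 members with 10 or more UMIs in each library had their highest level in the same keratinocyte class in both.

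**Figure D1:**
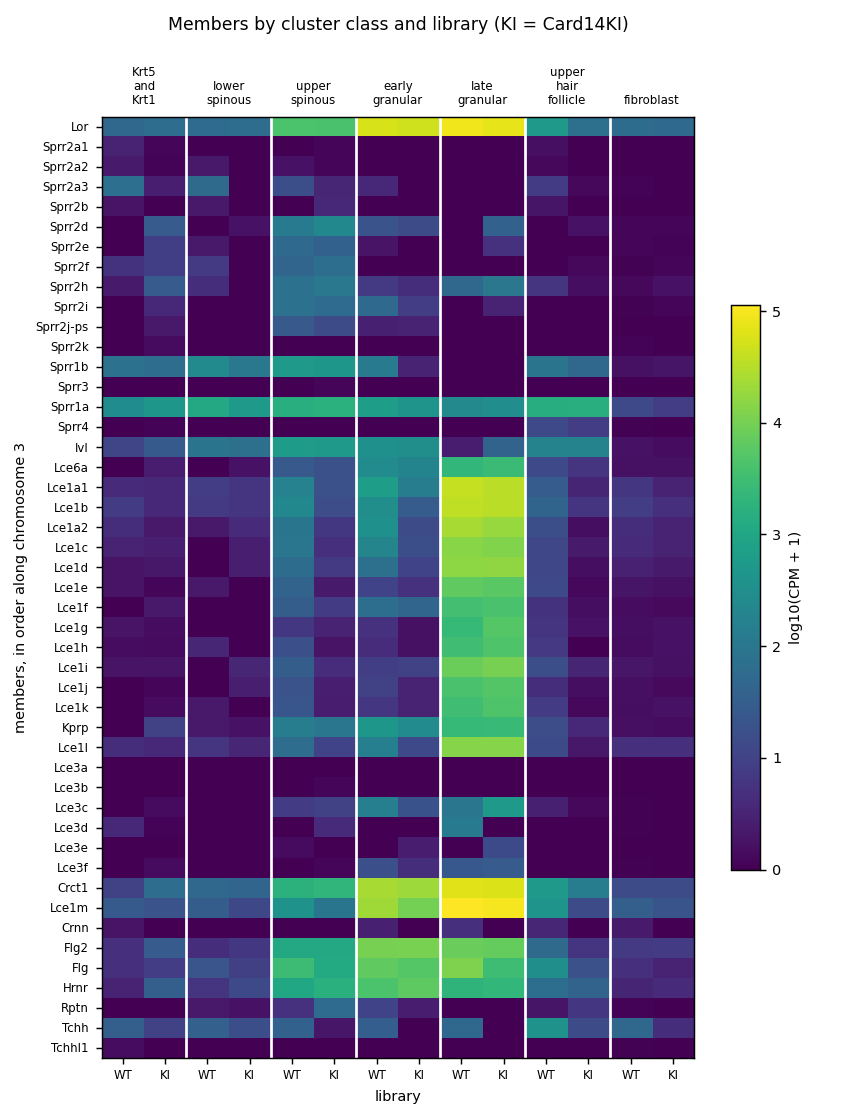
Level of each of the 47 genes as log10(CPM + 1) (colour), in order along chromosome 3 (vertical axis), for both libraries (KI is Card14KI) in 7 cell classes (horizontal axis). The Lce1 genes without Lce1m are bright in the late granular cluster alone, Lor, Crct1, Lce1m, Flg2, Flg and Hrnr are bright in both granular clusters, and, of the classes drawn, which leave out the inner root sheath, Sprr1a and Ivl are highest in the upper spinous cluster.

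Loricrin (Lor), the main envelope protein by mass, and Crct1, a small cysteine-rich protein, were on in both granular clusters. Lor stood at 56906 (WT) and 48381 CPM (Card14KI) in the early cluster, and at 87063 and 72505 CPM in the late one, a late over early ratio of 1.53 and 1.5. Its level in the Krt5 and Krt1 and lower spinous clusters, 46.8 to 63.6 CPM, was near that of fibroblasts (61.4 and 51.6 CPM). Crct1 was 2.70 and 2.98 times higher in the late than in the early cluster. The 13 Lce1 genes without Lce1m behaved otherwise: in WT their late over early ratios ran from 54.0 for Lce1f to 1068 for Lce1i, and in Card14KI, for the 9 genes with over 3 early UMIs, from 91.5 for Lce1f to 1774 for Lce1d. Lce1m, despite its name, lay between these patterns at 5.30 in WT and 9.65 in Card14KI. Lce6a (8.46 and 14.5) and Kprp, a keratinocyte proline-rich protein (5.09 and 10.0), were close to Lce1m. Flg2 and Hrnr, filaggrin relatives, were lower in the late than in the early cluster, at ratios of 0.774 and 0.652 for Flg2 and 0.467 and 0.344 for Hrnr.

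**Figure D2:**
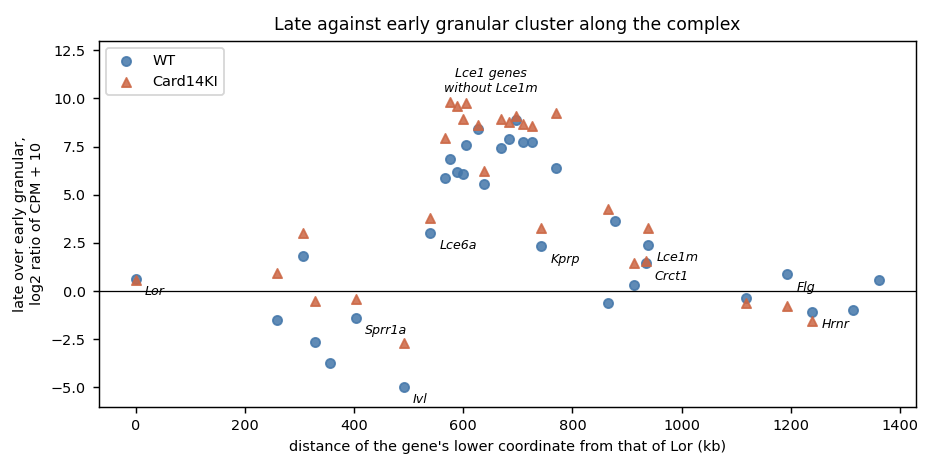
Late over early granular ratio (log2 of CPM + 10, vertical axis) of each member with 10 or more UMIs in these clusters of a library, against the distance of the gene from Lor (horizontal axis, kb), circles for WT and triangles for Card14KI. The 13 Lce1 genes of the central block stand above 5 in both libraries and Lce1m, outside the block, stands at 2.41 and 3.27.

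Single cells showed the same sequence of steps for Lor, Crct1, Lce1m and the other Lce1 genes in both libraries. A gene was counted as on in a cell when it held 1% or more of that cell's UMIs, over the upper spinous and granular clusters together (144 WT and 249 Card14KI cells). Lor was on in 72 WT and 96 Card14KI cells, Crct1 in 54 and 64, Lce1m in 44 and 32, and the other Lce1 genes summed in 28 and 20. Flg had no such step: it was on in 26 and 14 cells, of which 9 and 3 were upper spinous, 8 and 9 early granular and 9 and 2 late granular. No cell of either library had Lce1m on without Lor, while 28 WT and 64 Card14KI cells had Lor on without Lce1m. The other Lce1 genes were on without Lce1m in 1 WT and 1 Card14KI cell, and Lce1m was on without them in 17 and 13. These clusters were made without the members, but a count of cells at a threshold also depends on each gene's level, and the order was read from these same cells.

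**Figure D3:**
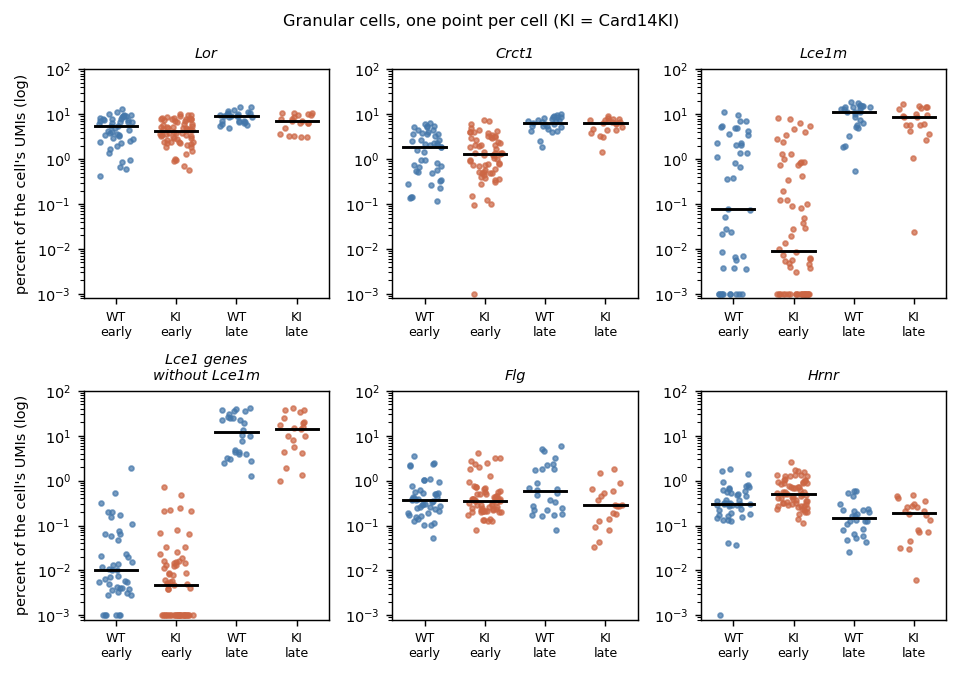
Percent of a cell's UMIs (log axis) held by 6 genes or gene sums in every granular cell, by library and cluster (KI is Card14KI), with bars at the medians; cells at 0 are drawn at the lower edge. The Lce1 sum without Lce1m is higher in the late than in the early cells (medians of 0.0101 and 0.004835% against 12.1 and 14.2%), with an overlap of the WT ranges between 1.25 and 1.92%, whereas Lor and Flg overlap over most of their ranges.

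Between the libraries, the granular layer as a whole (71 WT and 84 Card14KI cells) held fewer envelope transcripts in Card14KI. The 47 genes took 26.2% of its UMIs in WT and 18.3% in Card14KI. The Card14KI share was 0.701 of the WT share (0.698 to 0.704). Of the 32 members with 10 or more UMIs there, 5 were lower past 2-fold in Card14KI (a log2 ratio of CPM + 10 of 1 or more in size), namely Sprr2i, Sprr1b, Lce1a2, Lce3d and Tchh. None was higher, where 0.895% of 7371 genes were lower and 1.41% higher. Without the cell of each library with the most UMIs of a member, 3 of the 5 stayed past 2-fold (Sprr1b, Lce1a2 and Tchh). The members' median log2 ratio was -0.44, and the median over all genes was 0.17, a shift against which the ratios should be read. Scaling to the UMIs of the layer without the 47 genes brought that shift to 0.097.

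The difference was smaller once the libraries were given the same mix of early and late cells. Late cells were 26 of 71 granular cells in WT (36.6%, 25.5 to 48.9%) and 20 of 84 in Card14KI (23.8%, 15.2 to 34.35%), intervals that overlap, and they held 38.7 and 25.6% of the layer's UMIs. With the same weights for both clusters in each library, the log2 ratio of the 47-gene share was -0.23 instead of -0.51, and that of the 14 Lce1 genes summed was -0.25 instead of -0.76. Naming each cluster from its fold against the average of the other clusters left 1 granular cluster of 32 and 76 cells, in which the Lce1 sum turned to 0.60 and the share was -0.16.

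Within the late cluster the Lce1 genes stood at nearly the same level. The 13 genes without Lce1m summed to 178627 (WT) and 170088 CPM (Card14KI), a ratio of 0.952 (0.944 to 0.961). Per cell, they took 1.25 to 41.8% of UMIs in WT (median 12.1%) and 0.986 to 41.7% in Card14KI (median 14.2%), so the libraries overlapped over almost the whole range. The most abundant genes of the block were slightly lower in Card14KI: Lce1a1 at 40693 and 34575 CPM, Lce1b at 37587 and 34601, Lce1a2 at 25277 and 18563, and Lce1c at 14093 and 12388. Lce1d (15964 and 16678 CPM) and Lce1l (13487 and 13715 CPM) were nearly equal. Lce1g was the member of the block past 2-fold, at 2466 (WT) and 5300 CPM (Card14KI), a ratio of 2.15 (2.02 to 2.29). The sign of the summed difference was not stable: it turned to 0.48 with a stricter cell filter (28 and 12 late cells), 0.053 with doublets kept and 0.13 with the members left in the clustering. One WT late cell carried 230 of 233 Acta2 UMIs, a smooth muscle gene, and without it the sum was 174308 CPM.

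Below the late cluster the same Lce1 genes were called lower in Card14KI, but on few cells. In the early granular cluster the 13 genes without Lce1m summed to 1879 CPM in WT and 272.7 CPM in Card14KI. There 1 WT cell held 1593 of their 2161 WT UMIs, and 1 WT cell held 633 of the 797 Lce1a1 UMIs. In the upper spinous cluster they summed to 870.9 and 74.5 CPM. There a single WT cell held 2129 of their 2211 WT UMIs, and 1 WT cell held 429 of the 446 Lce1a1 UMIs. Of 36 members compared in the upper spinous cluster, 16 were lower past 2-fold and 1 higher (0.362% and 0.382% of 9935 genes), and 13 of the 16 were Lce1 genes, all but Lce1g. Among these Lce1e had 99 and 6 UMIs, Lce1h 42 and 4, Lce1j 48 and 8 and Lce1k 54 and 7, with 98, 42, 47 and 54 of the WT UMIs in 1 cell each. Leaving out, for each member, the cell of each library with the most of its UMIs left 2 of the 16, Flg and Tchh, and none of the 13. In the early cluster 11 of 28 members were lower and 0 higher (0.891% and 1.32% of 6957 genes), and 10 of the 11, with all 7 Lce1 genes among them, stayed past 2-fold without such cells. Lce1m was one of these 7, at 21454 and 9897 CPM, with 18 of 45 and 12 of 64 cells holding 1% or more, and its log2 ratio of -1.11 became -0.36 with the stricter cell filter and -0.85 with doublets kept.

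**Figure D4:**
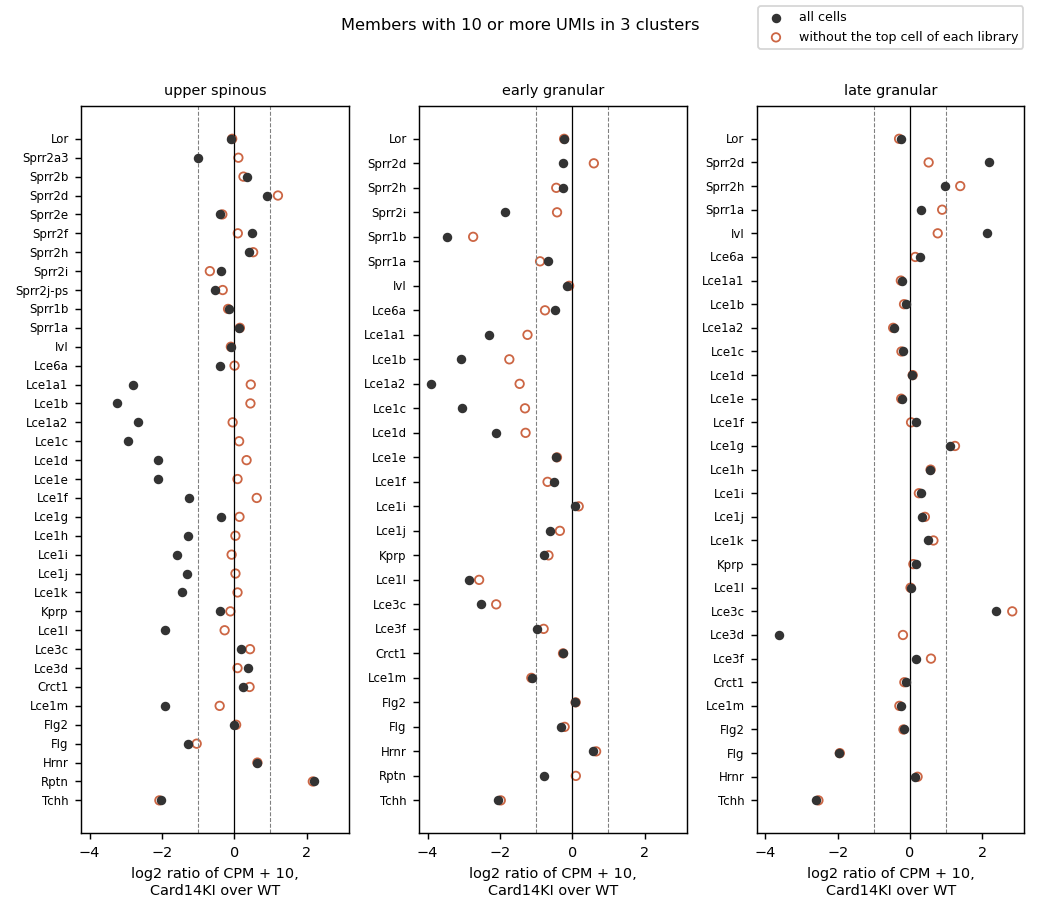
Log2 ratio of CPM + 10, Card14KI over WT (horizontal axis), of the members with 10 or more UMIs in the upper spinous, early granular and late granular clusters, for all cells (filled) and without the cell of each library with the most UMIs of that member (open); dashed lines mark 2-fold. In the upper spinous cluster the filled Lce1 points lie between -3.23 and -0.36 and the open ones near 0, while Flg and Rptn hardly move.

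Several abundant genes of the granular layer differed by less than 2-fold in the late cluster. Lor was lower in Card14KI at a ratio of 0.850 (0.841 to 0.859) in the early and 0.833 (0.822 to 0.844) in the late cluster, and at 4219 and 3961 CPM it was nearly equal in the upper spinous one. Crct1 stood at 24425 and 20355 CPM in the early and 66008 and 60649 CPM in the late cluster. Lce1m, the most abundant member in the late cluster, stood there at 113756 and 95454 CPM. Late levels of Kprp (2419 and 2729 CPM) and Lce6a (2274 and 2740 CPM) were slightly higher in Card14KI. None of these passed 2-fold in the late cluster, though Lce1m did in the early one.

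Filaggrin (Flg) was lower past 2-fold in Card14KI in the late granular and upper spinous clusters. In the late cluster the WT level was 11914 CPM and the Card14KI level 3037 CPM, a ratio of 0.255 (0.241 to 0.270). Per cell, Flg took 0.0808 to 5.92% of UMIs in the WT cells (median 0.578%) and 0.0339 to 1.84% in the Card14KI cells (median 0.281%); the ranges overlapped, and the highest WT values lay above every Card14KI cell. The upper spinous cluster showed a difference of the same sign, 2970 and 1224 CPM, and a log2 ratio of -1.27 that was -1.04 without the top cells. There 9 of 73 WT and 3 of 165 Card14KI cells held 1% or more of their UMIs as Flg. In the early cluster, between these, the difference was small, at 6544 and 5247 CPM with per-cell medians of 0.367 and 0.360%, and it turned to 0.081 on the log2 scale when cells were weighted equally. Flg thus peaked in the late cluster in WT and in the early cluster in Card14KI. Without the WT cell with smooth muscle transcripts the late log2 ratio was -2.04, against -1.97 with it.

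Its relatives did not follow it. Flg2, filaggrin 2, was nearly equal, at 10511 and 11085 CPM in the early, 8136 and 7227 CPM in the late and 1127 and 1115 CPM in the upper spinous cluster. Hornerin (Hrnr) was higher in Card14KI, at 4251 and 6337 CPM in the early cluster (ratio 1.49, 1.44 to 1.54) and 1043 and 1606 CPM in the upper spinous one (1.54, 1.47 to 1.61), and at 1983 and 2182 CPM in the late cluster. Repetin (Rptn) was the 1 member higher past 2-fold in the upper spinous cluster, with 11 UMIs in 7 WT cells and 266 UMIs in 18 Card14KI cells, or 4.33 and 56.3 CPM, or 12.98 times as high (7.14 to 26.33). The log2 ratio of Rptn was 2.21 and stayed at 2.17 without the top cell of each library. In the whole late cluster 4 of 29 members were higher (Sprr2d, Ivl, Lce1g and Lce3c) and 3 lower (Lce3d, Flg and Tchh), where 6.62% and 5.63% of 2914 genes were called. That share of called members, in a cluster of 26 and 20 cells, is thus to be read against a high background.

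Trichohyalin (Tchh), which hardens the inner root sheath of the hair, did not belong to the epidermal layers in these data. It stood at 52920 CPM in the WT inner root sheath-like cells, where 147 of 153 cells held 292846 UMIs, and Card14KI had 1 such cell. Crnn (cornulin) and Tchhl1 were highest there too, at 534.9 and 206.4 CPM in WT, and Sprr1a and Crct1 were present, at 2988 and 2184 CPM. In the epidermal clusters WT Tchh stood at 31.3 to 51.0 CPM, around the 49.2 CPM of fibroblasts, and Card14KI Tchh at 0 to 15.3 CPM, against 3.66 CPM in its fibroblasts. The inner root sheath marker list moved the same way, for instance at 95.02 and 2.11 CPM in the late cluster. The lower Tchh calls in Card14KI, at least 14.4-fold in the early and at least 8.07-fold in the late cluster, thus compare levels near those of fibroblasts.

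Among the epidermal clusters, involucrin (Ivl) and the more abundant small proline-rich genes peaked below the granular layer. WT Sprr1a was higher still in the inner root sheath-like cells. Ivl stood at 585.3 and 548 CPM in the upper spinous cluster, and at 351.3 and 315.4 CPM in the early granular one. In the late cluster Ivl had 1 UMI in WT and 19 in Card14KI, of which 16 were in 1 cell. Sprr1a, the most abundant of its family, was at 1555 and 1710 CPM in the upper spinous cluster. Lower down it differed, at 1136 and 521.5 CPM in the lower spinous cluster (ratio 0.459, 0.415 to 0.508), and in the opposite direction, at 291.8 and 472.9 CPM, in the Krt5 and Krt1 cluster. Sprr1b went with Sprr1a in the lower spinous cluster, at 252.7 and 106.2 CPM, and was nearly equal in the upper spinous one, at 533.3 and 477 CPM. In the early granular cluster Sprr1b had 142 UMIs in 7 WT cells, 69 of them in 1 cell, and 3 UMIs in Card14KI.

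The Sprr2 genes were low and carried by few cells. Sprr2d, the member of this family with the most UMIs, stood at 117.4 CPM in WT (298 UMIs in 9 cells) and 227.2 CPM in Card14KI (1074 UMIs in 56 cells) in the upper spinous cluster, a ratio of 1.94 (1.70 to 2.21). Sprr2h stood there at 77.6 and 105.3 CPM, and Sprr2i at 79.2 and 58.8 CPM, with 161 of 278 Card14KI UMIs of Sprr2i in 1 cell. In the early granular cluster 55 of the 61 WT UMIs of Sprr2i were in 1 cell. Late Sprr2d, with 0 WT and 17 Card14KI UMIs, had 15 of them in 1 cell. Of the lower spinous cluster's 13 members compared, 3 were lower past 2-fold (Sprr2a3, Sprr1b and Sprr1a) and 0 higher, where 0.745% and 0.5% of 8592 genes were called, and all 3 fell below 2-fold without the top cells.

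**Figure D5:**
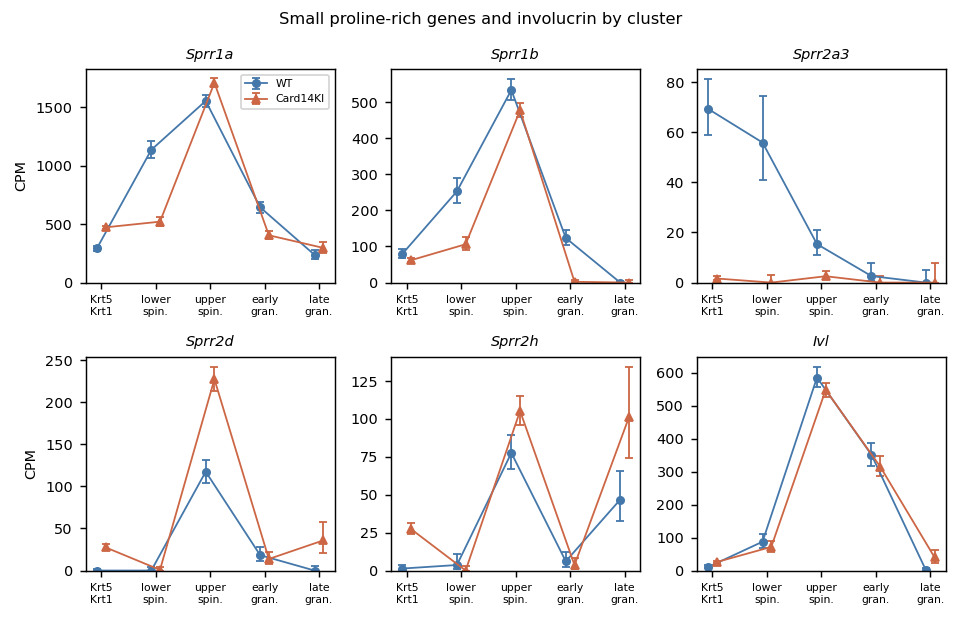
CPM (vertical axis, from 0) of 5 small proline-rich genes and Ivl in 5 clusters (horizontal axis), circles for WT and triangles for Card14KI, with exact 95% Poisson intervals for counting error. Sprr1a, Sprr1b, Sprr2d and Ivl peak in the upper spinous cluster in both libraries, whereas Sprr2a3 is highest in the WT Krt5 and Krt1 cluster, at 69.3 CPM.

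Sprr2a3 had a pattern of its own. In the Krt5 and Krt1 cluster it had 157 UMIs in 16 of 58 WT cells and 13 UMIs in 5 of 167 Card14KI cells, or 69.3 and 1.63 CPM, a ratio of 0.0235 (0.0122 to 0.0413). The largest share of 1 cell was 49 UMIs. In the lower and upper spinous clusters single WT cells held 44 of 46 and 37 of 39 UMIs. The gene's copies cannot all be told apart by short reads, which the coding sequences show. The 249 bases of Sprr2a1 and Sprr2a2 are identical, and those of Sprr2a3 differ from them by 3 substitutions (GENCODE vM21, 5′ to 3′, the differing letters in capitals).
Sprr2a1: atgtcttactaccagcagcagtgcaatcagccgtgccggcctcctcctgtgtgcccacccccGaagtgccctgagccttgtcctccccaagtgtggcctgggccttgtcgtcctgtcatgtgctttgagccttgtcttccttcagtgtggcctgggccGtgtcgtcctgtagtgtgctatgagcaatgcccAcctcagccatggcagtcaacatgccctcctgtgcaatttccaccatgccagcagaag
Sprr2a3: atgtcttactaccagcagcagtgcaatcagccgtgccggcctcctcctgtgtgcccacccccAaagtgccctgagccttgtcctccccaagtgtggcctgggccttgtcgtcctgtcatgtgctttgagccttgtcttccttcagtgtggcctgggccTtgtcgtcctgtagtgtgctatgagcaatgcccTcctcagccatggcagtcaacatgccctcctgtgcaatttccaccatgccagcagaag
In the last 500 bases of the transcripts, 0% of 91-base windows of Sprr2a1 and Sprr2a2 were unique to 1 gene, against 72.0% for Sprr2a3. Sprr2a1 and Sprr2a2, with 7 and 7 UMIs in WT and 3 and 2 in Card14KI, are therefore uncertain, and their reads cannot all be told apart from those of Sprr2a3.

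In the Krt5 and Krt1 cluster a few members were higher in Card14KI. Of 26 compared, 17 had a log2 ratio above 0 and 9 below, against 6061 above and 5453 below among all 11514 genes. Past 2-fold, 5 members were higher and 2 lower, where 0.426% and 0.217% of all genes were called. Those higher were Crct1 (8.83 and 63.5 CPM), Hrnr (2.21 and 33.6 CPM), Flg2 (3.97 and 27.4 CPM), Sprr2h (1.33 and 27.3 CPM) and Sprr2d, which had 0 WT and 220 Card14KI UMIs, at least 20.8-fold higher. Those lower were Sprr2a3 and Tchh, and all 7 stayed past 2-fold without the top cells. Single Card14KI cells held 154 of 507 Crct1, 103 of 218 Sprr2h and 100 of 220 Sprr2d UMIs. The granular marker list, which holds none of these genes, stood at 144.4 and 285.1 CPM in the same cluster. The upper hair follicle list stood at 121 and 581 CPM, the mononuclear phagocyte list at 178.4 and 366.1 CPM and the neutrophil list at 15.45 and 115.6 CPM. The basal list was lower in Card14KI, at 16732 and 14151 CPM, and the spinous list higher, at 17457 and 21428 CPM. The cells' median depth was 21823 UMIs in WT and 43870 in Card14KI. The part of these values in the result was not tested.

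The Lce3 genes, which in human skin are known as genes of repair and psoriasis, were rare. Lce3c was their most abundant member, at 152.2 and 18.1 CPM in the early cluster and, in the opposite direction, at 95.02 and 537 CPM in the late one, where 1 Card14KI cell held 102 of 255 UMIs. The 81 of 82 late Lce3d UMIs in WT came from 1 cell, and Card14KI had 0, which is at least 17.9-fold lower. Lce3a, Lce3b, Lce3e, Sprr2k and Sprr3 are listed with 0 to 8 UMIs per library over all kept cells. Of the Lce3 genes from Lce3c to Lce3f, 62.0 to 70.2% of 91-base windows were unique, so their counts can be split or lost among them. The Lce1 genes were less affected, with 88.3 to 100% unique windows, although Lce1a1 and Lce1a2 are 92.8% identical. At 91 bases Lce1a1 shared windows with Lce1e, Lce1f, Lce1g and Lce1j but not with Lce1a2, which had only unique ones. The first 120 coding bases of Lce1a1 and Lce1a2 are shown with the letters that differ in capitals. They are the start of the coding sequence, while counts were taken at 3' ends.
Lce1a1: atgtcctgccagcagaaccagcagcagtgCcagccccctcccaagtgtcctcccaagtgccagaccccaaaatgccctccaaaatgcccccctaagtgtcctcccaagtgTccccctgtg
Lce1a2: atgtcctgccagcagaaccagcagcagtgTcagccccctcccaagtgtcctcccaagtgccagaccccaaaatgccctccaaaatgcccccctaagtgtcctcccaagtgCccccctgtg
In all, 29 of the 47 members had only unique windows of 91 bases, and 40 of 150 bases. Flg, Hrnr, Lor, Crct1 and Lce1m were among the 29, though the annotation puts the pseudogene Rplp0-ps1 on the same strand inside Flg and Gm37857 inside Rptn.

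The upper hair follicle-like cells (129 WT and 157 Card14KI) joined 2 clusters, of 79 and 103 and of 50 and 54 cells. The smaller was named on weak grounds, with 1 marker of this list and 1 of another among its top 10 genes. A cluster with similar top genes was named basal with the stricter cell filter (37 and 59 cells) and with the members left in the clustering (50 and 62 cells). In the joined cells the members took 0.417 and 0.201% of UMIs. Of 29 compared, 12 were lower past 2-fold in Card14KI and 0 higher, where 0.88% and 0.288% of 11473 genes were called, and 4 of the 12 (Lor, Lce1m, Flg and Tchh) stayed so without the top cells. Flg was the clearest, with 1052 UMIs in 23 WT cells and 62 in 18 Card14KI cells, 322.6 and 16.6 CPM. Its log2 ratio of -3.64 was -1.71 with the stricter cell filter, -1.31 with doublets kept and -0.44 with no cell filter. By contrast, 1 WT cell held 1204 of 1347 Lce1m UMIs and 1158 of 1672 Lor UMIs were in 1 cell. Sprr1a (1402 and 1446 CPM) and Ivl (180 and 181.8 CPM) were nearly equal there, and Sprr4, with 39 and 27 UMIs, had its highest level in these cells. Some marker lists also stood lower there in Card14KI, among them the fibroblast list at 729.6 and 146.6 CPM. The inner root sheath list stood at 260.4 and 3.22 CPM and the granular list at 1515 and 1088 CPM. Others stood higher, among them the upper hair follicle list itself, at 18737 and 25500 CPM, and the mononuclear phagocyte list, at 226.6 and 588.2 CPM. The part of these lists in the result was not tested.

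In the granular layer as a whole, few genes that act on these proteins or their transcription passed 2-fold. Of all 7371 genes compared there, 1.41% were higher and 0.895% lower, so few calls are expected from lists of this size. Of the 14 crosslinking and processing enzymes, 9 had 10 or more UMIs in the granular layer and 0 passed 2-fold, and of the 10 other envelope and plaque proteins, 9 had them and 0 passed. Transglutaminase 1 (Tgm1), which cross-links the envelope, stood at 305.4 (WT) and 409.2 CPM (Card14KI) in the granular layer and 103.8 and 144 CPM in the spinous clusters. Transglutaminase 3 (Tgm3) had 2 and 0 UMIs in the granular layer and stood at 10.1 and 10.6 CPM in the spinous clusters. Among 20 transcription factors, 19 were compared in the granular layer and Pou2f3, a POU factor of keratinocyte differentiation, was the 1 past 2-fold, at 34.1 and 81.3 CPM. Klf4, a factor needed for the skin barrier, stood at 1234 and 981.6 CPM there. Grhl3, another barrier factor, stood at 103.4 and 131.4 CPM, and Nfe2l2, the oxidative stress factor NRF2, at 4.797 and 4.307 CPM. In the late cluster alone, 1 of 7 enzymes (St14) and 5 of 10 factors (Grhl3, Grhl1, Hopx, Cebpa and Zfp750) were higher past 2-fold, on 2 to 9 WT and 9 to 45 Card14KI UMIs each, and without the top cells Hopx alone stayed so. Of all 2914 genes compared in that cluster, 6.62% were higher and 5.63% lower.

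Other markers moved between the libraries in the same clusters. The sum of the 6 neutrophil markers was 16.2 CPM in WT and 696.3 CPM in Card14KI in the upper spinous, 59.1 and 469.5 in the early granular and 19.3 and 294.8 in the late granular cluster. S100a8 and S100a9 made up nearly all of the Card14KI sums, and Of the receptors in the list, Csf3r had 0 UMIs in all 3 clusters of both libraries, while Cxcr2 had 26 UMIs in 15 WT and 67 UMIs in 37 Card14KI cells of the upper spinous cluster, 7 and 13 UMIs in the early and 0 in the late cluster. The granular marker list was level between the libraries, at 28203 and 27244 CPM in the early and 36177 and 36374 CPM in the late cluster. The spinous list was higher in Card14KI in both, at 94821 and 109951 CPM in the early and 33053 and 48252 CPM in the late cluster. The part of these differences in the member levels was not tested.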

How the data were processed

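Single-cell RNA libraries of whole back skin came from 1 WT and 1 Card14KI mouse. Per the labels' protocols, libraries were made with a 10x Genomics 3' gene expression kit, version 3.1. The authors deposited raw UMI counts, not normalized, for barcodes that their pipeline had called as cells. The submitters' processing notes name Cell Ranger 6.0.2 and the mm10 build, and per the file headers the software was Cell Ranger 5.0.0. Which annotation release they used is not given in the sources consulted. Of 31053 features, 31011 were located by gene ID in GENCODE vM21.

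Barcodes with under 500 genes or with 20% or more mitochondrial UMIs were removed. The cells with the highest scrublet doublet scores, 0.8% per 1000 barcodes (174 WT and 78 Card14KI), were removed as well. The remaining cells, then the keratinocytes alone, were clustered with scanpy 1.11.5 on 2000 variable genes, 30 principal components, 20 neighbours and Leiden resolution 1. Neither the members nor 44 partner genes could serve as variable genes. Clusters were named by the marker list with the highest fold over the median of the other clusters, if 3 or more of its markers were found in 10% of cells. A keratinocyte cluster was left unnamed where its top 10 genes by fold held no marker of that list, more markers of another keratinocyte list, or 3 or more of another cell type. Within each library, counts of the cells of a class were added up and expressed as CPM. Genes with 10 or more UMIs in both libraries together were compared as log2 ratios of CPM + 10 (smaller than the plain ratio for low genes). Folds against 0 counts used a floor of 3 counts per library. Intervals are exact Poisson for levels, conditional binomial for ratios and Clopper-Pearson for shares. With 1 library per group there was no test. The computation recovered large known changes in well-counted genes of simulated Poisson counts. Those counts had no single cells in them, so they say nothing of calls on few UMIs or calls carried by 1 cell.

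The members and lists were chosen with earlier results of these data known. The members named were the 12 with the highest CPM in a layer, those past 2-fold in the spinous or granular layer, and the highest of each subfamily. Named partner genes were those past 2-fold and Tgm1, Tgm3, Klf4, Grhl3 and Nfe2l2. Values in single clusters and the members named with them (among them Hrnr, Kprp, Lce6a, Sprr2h and several Lce1 genes) were added after the data were seen.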

Additional observations from a re-analysis of the deposited data

How the results depend on the processing

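No paired analysis was possible because each group had 1 library. The log2 ratio of the 47-gene share in the granular layer, -0.51, stayed negative under all 14 other settings listed at the outset, and that of the summed Lce1 genes, -0.76, under all but 1. With no cell filter (1 granular cluster, 40 and 31 cells) these were -0.25 and -0.24, 2 members were higher past 2-fold, and Kprp (0.086) and Lce6a (0.17) reversed. With at least 1000 genes and under 10% mitochondrial UMIs they were -0.61 and -0.90, with doublets kept -0.53 and -0.78, with the members left in the variable genes -0.52 and -0.78, and at resolution 1.5 -0.53 and -0.77 with 1 member higher. Scaling without the members gave -0.66 and -0.90, with Flg2 at -0.071. Without the cell of each library richest in members they were -0.53 and -0.82, and by the mean of per-cell CPM the Lce1 sum was -0.78 with 1 member higher. The same cluster weights gave -0.23 and -0.25, 1 member higher, and Lce6a at 0.14. A layer set by a per-cell score of the granular markers gave -0.60 and -0.90, 2 members higher, Flg2 at -0.15 and Sprr1a at 0.25. Naming clusters by fold over the mean, which left 1 granular cluster (32 and 76 cells), changed most: the share was -0.16, the Lce1 sum 0.60, 3 members were lower and 6 higher, and Crct1 (0.28), Lce1m (0.20), Lce1a1 (1.19), Sprr1a (0.20) and Sprr1b (0.17) reversed. The median log2 ratio over all genes was 0.0021 under that naming, against 0.17 in the main setting. The share of all genes called under each of these settings is not given here, so the counts of members past 2-fold cannot be read against it. Of the values in single clusters, chosen after seeing the data, the late Lce1 sum without Lce1m reversed to 0.48 with the stricter cell filter, 0.053 with doublets kept and 0.13 with the members left in, and early Flg to 0.081 by the mean of per-cell CPM. Late Flg kept its sign under all 6 alternatives, between -2.01 and -1.61. Late values rest on 26 and 20 cells, which limits what depth can show there.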
